A study of Rattus norvegicus with 13 samples.

Results

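The 7 genes described here encode hormones of the anterior pituitary and 2 transcription factors of the cells that make them. They were Cga, Tshb, Lhb, Gh1, Prl, Pou1f1 and Pitx1, taken from 22093 rat genes that had a transcript cluster annotated with exactly 1 symbol. Each of the 7 had a single such transcript cluster. The arrays measured total RNA of the hypothalamus of male Sprague-Dawley rats, aged 14 to 15 weeks and fed their diet for 2 months. Rats of HF-SD (5 arrays) ate a high-fat diet with 35% of energy as safflower oil, a source of linoleic acid (omega-6). Rats of HF-FD (4 arrays) ate a high-fat diet with 35% of energy as flaxseed oil, a source of alpha-linolenic acid (omega-3). Rats of LF-CD (4 arrays) ate a low-fat control diet with 16% of energy as soybean oil. The tissue was a whole dissected hypothalamus, so in these bulk samples fewer cells of a type and less RNA per cell cannot be told apart. Whether an array stands for 1 animal is not in the labels, and p-values measure only the spread between these arrays, which may be partly technical.

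The anterior pituitary secretes its hormones under the control of releasing factors that hypothalamic neurons deliver through the portal vessels of the median eminence. Thyrotropin and the gonadotropins are pairs of a shared alpha subunit, encoded by Cga, with a hormone-specific beta subunit such as those encoded by Tshb and Lhb. Most pituitary cells lie in the pars distalis, below the brain, where Pou1f1 acts in the cells that make growth hormone, prolactin and thyrotropin. The pars tuberalis is a thin sheet of pituitary cells wrapped around the stalk and the median eminence. It is known for cells that express Cga, Tshb and the melatonin receptor Mtnr1a without Pou1f1, and its thyrotropin acts on tanycytes of the hypothalamus. A hypothalamic dissection can therefore include cells of the pars tuberalis with or without tissue of the pars distalis, and the question asked here was whether single arrays carried transcripts of either.

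The promoters of Cga and Tshb, the 2 genes that varied most between arrays, and of Prl, the pars distalis gene that varied little, are shown because these genes differ in the cells that express them. RefSeq's table for assembly GRCr8 held a promoter for 4 of the 7 genes (Cga, Tshb, Lhb and Prl), each of 300 bases from 250 before to 50 after the start site. Capitals mark matches to 5 motifs searched on both strands. The letters ATGNATA stand for the core of a site of Pou1f1. Those of a site for Pitx factors are TAATCC, as in other homeodomain factors of the bicoid type. The cAMP response element is TGACGTCA in its palindromic form. A variant of that element, searched separately, is TGATGTCA. The letters searched for GATA factors were TGATAA. No 2 of the marked matches overlapped.
Cga, chr5:54283090-54283389, plus strand: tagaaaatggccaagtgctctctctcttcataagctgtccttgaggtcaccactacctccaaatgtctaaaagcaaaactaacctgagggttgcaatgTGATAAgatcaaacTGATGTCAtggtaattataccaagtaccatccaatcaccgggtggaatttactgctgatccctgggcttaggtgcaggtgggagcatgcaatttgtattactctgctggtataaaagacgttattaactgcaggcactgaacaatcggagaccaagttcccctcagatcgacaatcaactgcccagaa
Tshb, chr2:192918005-192918304, minus strand: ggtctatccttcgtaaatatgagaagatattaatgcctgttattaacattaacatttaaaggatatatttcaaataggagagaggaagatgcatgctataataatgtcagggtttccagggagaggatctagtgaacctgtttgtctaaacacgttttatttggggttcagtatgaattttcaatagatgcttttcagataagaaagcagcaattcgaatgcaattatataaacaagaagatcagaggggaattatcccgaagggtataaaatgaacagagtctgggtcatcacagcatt
Prl, chr17:38298168-38298467, minus strand: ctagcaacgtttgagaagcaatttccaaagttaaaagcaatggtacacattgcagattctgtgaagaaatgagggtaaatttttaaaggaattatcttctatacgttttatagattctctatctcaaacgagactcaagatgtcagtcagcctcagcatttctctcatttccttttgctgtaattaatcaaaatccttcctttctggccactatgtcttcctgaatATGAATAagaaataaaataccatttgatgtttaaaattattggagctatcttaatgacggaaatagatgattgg
The Cga promoter held TGATAA at -152 and TGATGTCA at -138 relative to the start site. These letters were present in 9.03% and 4.34% of all 33469 promoters of the table. The Prl promoter held ATGNATA at -24, a match found in 9.88% of promoters. TAATCC (in 7.17% of promoters) and TGACGTCA (in 1.83%) were in none of the windows, and those of Tshb and Lhb held none of the 5 motifs. A match describes the letters only and is not a site of binding. Forms of these sites with other letters were not searched, so a window without a match can still hold such a form.

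The log2 signals used below are the deposited RMA values, in which 1 unit is a doubling of signal. The defining hypothalamic genes were present on every array, with a mean log2 signal over 12 genes of 8.91 to 9.44 in HF-SD, 9.27 to 9.46 in HF-FD and 9.13 to 9.35 in LF-CD. Levels were not fully aligned between diets. The array median over all transcript clusters was 6.42 to 6.59 in HF-SD, 6.53 to 6.66 in HF-FD and 6.67 to 6.74 in LF-CD. The median of 1128 olfactory receptor transcript clusters, genes with no known role in this tissue, was 4.69 to 4.79 in HF-SD, 4.84 to 4.95 in HF-FD and 4.95 to 5.11 in LF-CD. Both arrays HF-FD 1 and LF-CD 3 stood apart in other tissues' genes. The mean over 9 tanycyte and median eminence genes was 8.88 on HF-FD 1, against a range of 8.31 to 8.58 on the other arrays. The mean over 12 skeletal muscle genes was 9.44 on LF-CD 3, against 7.06 to 7.66 on the others.

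Cga, the alpha subunit, had the widest spread of the 7 genes. Its log2 signal was 7.56, 8.26, 10.52, 10.25 and 7.47 on HF-SD 1 to 5. It was 10.64, 10.72, 10.43 and 11.05 on HF-FD 1 to 4, and 9.53, 9.52, 10.86 and 9.99 on LF-CD 1 to 4. HF-SD 1, 2 and 5 lay below every other array, while HF-SD 3 and 4 lay within the range of the other diets, so HF-SD overlapped both. The lowest and the highest array differed by 3.58 log2 units, or 12-fold. The standard deviation within diets was 1.0 log2 unit, the 4th highest of 16033 tested genes, whose median was 0.117. The mean was 8.81 ± 1.47 (SD, n = 5) in HF-SD, 10.71 ± 0.26 (SD, n = 4) in HF-FD and 9.97 ± 0.63 (SD, n = 4) in LF-CD.

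Tshb, the beta subunit of thyrotropin, also varied within diets. Its log2 signal was 5.65, 5.61, 5.90, 6.50 and 5.33 on HF-SD 1 to 5. It was 5.94, 7.73, 6.44 and 6.77 on HF-FD 1 to 4, and 6.19, 5.89, 7.69 and 6.81 on LF-CD 1 to 4. HF-FD 2 and LF-CD 3 lay above all other arrays, whose highest was LF-CD 4, and the diets overlapped. The lowest 3 arrays were HF-SD 1, 2 and 5, as for Cga. The range was 2.39 log2 units, or 5.25-fold, and the standard deviation within diets, 0.66, ranked 51st of all 22093 genes. The means were 5.80 ± 0.44 (SD, n = 5) in HF-SD, 6.72 ± 0.75 (SD, n = 4) in HF-FD and 6.65 ± 0.79 (SD, n = 4) in LF-CD.

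Lhb, the beta subunit of luteinizing hormone, spanned 0.73 log2 units. Its log2 signal was 6.75, 6.88, 6.82, 7.11 and 6.54 on HF-SD 1 to 5, 7.28, 6.93, 6.86 and 6.89 on HF-FD 1 to 4, and 7.23, 7.14, 6.98 and 7.01 on LF-CD 1 to 4. The highest array, HF-FD 1, was not one of the highest 3 for Cga, and the diets overlapped.

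Gh1, growth hormone, and Prl, prolactin, the main products of the pars distalis, did not share the spread of Cga. The Gh1 log2 signal was 6.76, 6.89, 6.80, 6.87 and 6.79 on HF-SD 1 to 5, 7.10, 6.97, 7.15 and 6.74 on HF-FD 1 to 4, and 7.24, 7.15, 7.29 and 7.13 on LF-CD 1 to 4. All HF-SD arrays lay below all LF-CD arrays, and HF-FD overlapped both. The Prl log2 signal was 3.56, 3.53, 3.54, 3.49 and 3.56 on HF-SD 1 to 5, 3.62, 3.45, 3.57 and 3.51 on HF-FD 1 to 4, and 3.88, 3.72, 3.61 and 3.68 on LF-CD 1 to 4. Its range over all 13 arrays was 0.43 log2 units, and HF-SD lay below LF-CD. No array was high for Prl: it was below the olfactory receptor median on 13 of 13 arrays. Probes of different genes bind with different strength, so this describes a low signal and does not measure an amount.

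Pou1f1, the pituitary-specific factor of somatotrophs, lactotrophs and thyrotrophs, had log2 signals of 5.43 to 5.62 in HF-SD (median 5.53), 5.42 to 5.68 in HF-FD (median 5.57) and 5.57 to 5.80 in LF-CD (median 5.77). Pitx1, a homeodomain factor of the early pituitary that acts in most of its hormone cells, had log2 signals of 7.63 to 7.76 in HF-SD (median 7.70), 7.74 to 7.95 in HF-FD (median 7.78) and 7.85 to 8.05 in LF-CD (median 7.89). The Pou1f1 values overlapped between all diets. The Pitx1 values of HF-SD lay below those of LF-CD and overlapped with HF-FD. Against the 95th percentile of the olfactory receptor signals on the same array, 13 of 13 arrays were above it for Cga, Gh1 and Pitx1, 11 for Lhb, 3 for Tshb and 0 for Prl and Pou1f1.

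**Figure D1:**
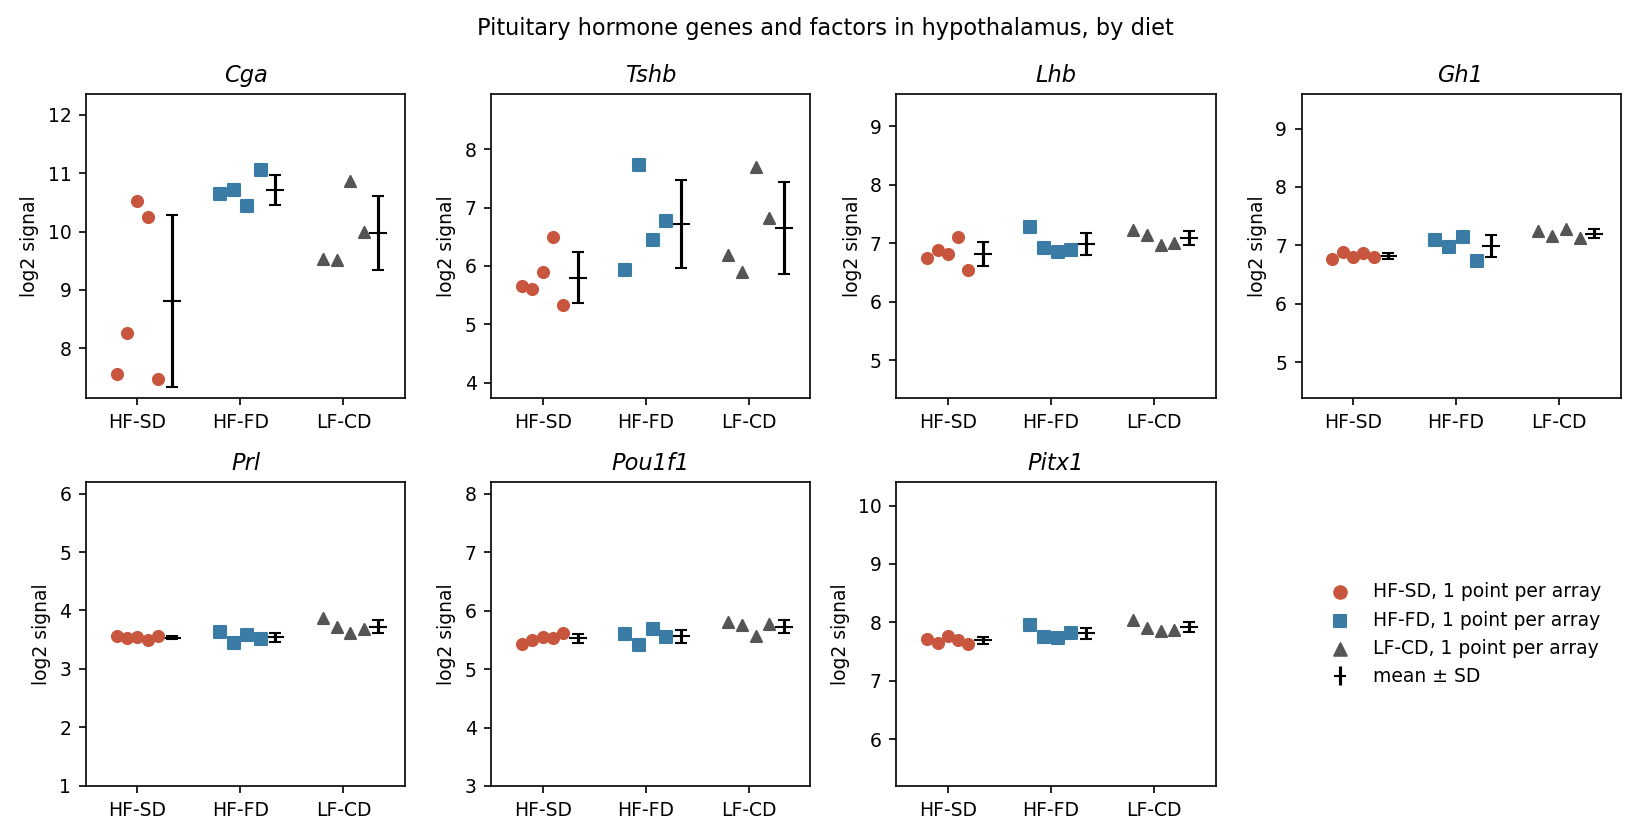
Log2 signal (y axis, the same span in each panel) of the 7 genes on each array, with HF-SD, HF-FD and LF-CD from left to right. Points are arrays and bars are mean ± SD. Cga and Tshb spread widely within diets, with 3 HF-SD arrays far below the rest for Cga, while Gh1, Prl, Pou1f1 and Pitx1 lie in narrow bands.

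Among the genes known for the pars tuberalis and its response, Mtnr1a and Nmu had low values on the same arrays as Cga. Mtnr1a, a melatonin receptor, had log2 signals of 7.21, 7.44, 7.84, 7.82 and 7.16 on HF-SD 1 to 5, 8.38, 7.79, 8.13 and 7.93 on HF-FD 1 to 4, and 7.90, 7.51, 7.87 and 7.92 on LF-CD 1 to 4. Nmu, neuromedin U, which is expressed in the pars tuberalis of the rat, had 6.45, 6.49, 7.08, 6.93 and 6.50 on HF-SD 1 to 5, 6.81, 7.17, 7.26 and 7.08 on HF-FD 1 to 4, and 6.93, 6.85, 7.25 and 6.95 on LF-CD 1 to 4. For both, HF-SD 1, 2 and 5 were the lowest 3 of the 13 arrays, as they were for 280 of the 16033 tested genes (1.75%). Lhb, Gh1, Pou1f1 and Pitx1 shared 2 of these 3 arrays among their lowest and Prl shared 0. HF-SD 1 and 5 were also the lowest arrays in genes of some other lists, but not of all. The mean over the defining hypothalamic genes was 8.91 and 9.03 there, against 9.44 on HF-SD 2. That over the tanycyte and median eminence genes was 8.33 and 8.31, against 8.44. The array median was 6.44 and 6.42, against 6.50, and the olfactory receptor median 4.75 and 4.69, against 4.79. The mean over the meninges and connective tissue genes was 8.88 on HF-SD 1, the highest of the 13 arrays, and 8.42 on HF-SD 5. Over the blood cell genes HF-FD 1 was lowest, at 7.44, against 7.52 and 7.56 on HF-SD 1 and 5. Why HF-SD 1, 2 and 5 were low in some of these values was not tested.

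The other genes of the pars tuberalis list had their lowest 3 values on other sets of arrays, and some were not low where Cga was low. Gpr50 was 7.44 and 7.37 on HF-SD 1 and 5, 8.31 on HF-SD 2 and 7.70 to 8.32 on all other arrays. Dio3 was 6.52, 6.59 and 7.11 on HF-SD 1, 2 and 5 and 6.31 and 6.09 on HF-SD 3 and 4. It was 6.50 to 8.02 in HF-FD and 6.40 to 7.16 in LF-CD. Tshr, the thyrotropin receptor carried by tanycytes, had 6.47 to 7.11 in HF-SD, 8.24 on HF-FD 1, 6.71 to 6.80 on the other HF-FD arrays and 6.58 to 6.80 in LF-CD. Dio2, the deiodinase that makes active thyroid hormone, had 7.05 to 7.36 in HF-SD, 7.19 to 7.66 in HF-FD and 6.77 to 7.18 in LF-CD. Eya3, a coactivator known in sheep for the long-day response of the pars tuberalis, had 8.34 to 8.49 in HF-SD, 8.31 to 8.39 in HF-FD and 8.17 to 8.33 in LF-CD. Within HF-SD, Tshr was highest on HF-SD 2, at 7.11, and Eya3 on HF-SD 5, at 8.49. The mean over the 7 genes of the list was 7.07 to 7.42 in HF-SD, 7.38 to 7.97 in HF-FD and 7.27 to 7.41 in LF-CD. It was 7.07, 7.37 and 7.21 on HF-SD 1, 2 and 5, and 7.27 on LF-CD 3, where Cga was 10.86.

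The genes most like each hormone gene were taken from 624 tested genes, other than the hormone gene itself, with a range of at least 1 log2 unit, by Pearson's r over the 13 arrays. Those of Cga were Mtnr1a (r = 0.85), Kiaa1210 (0.84), Npvf (0.76), Capsl (0.75) and Dct (0.74). Npvf encodes the RFamide-related peptides of dorsomedial hypothalamic neurons and Dct an enzyme of melanin synthesis. Those of Tshb were Lgals5 (r = 0.85), a galectin of rat reticulocytes, Hemgn (0.82), a nuclear protein of blood-forming cells, and the microRNA genes Mir674 (0.82), Mir764 (0.82) and Mir3120 (0.81). Those of Gh1 were Tnni2 (0.88), a troponin of fast muscle, C16h10orf71 (0.85), Tcap (0.84), a titin cap protein, Mir328 (0.82) and Fitm1 (0.80). That of Prl held Mir328 (0.85), Mir181d (0.81), Taar6 (0.79), Psca (0.76) and Mir322 (0.75). These values describe 13 arrays that share diets, dissection and scaling, and carry no p-value.

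**Figure D2:**
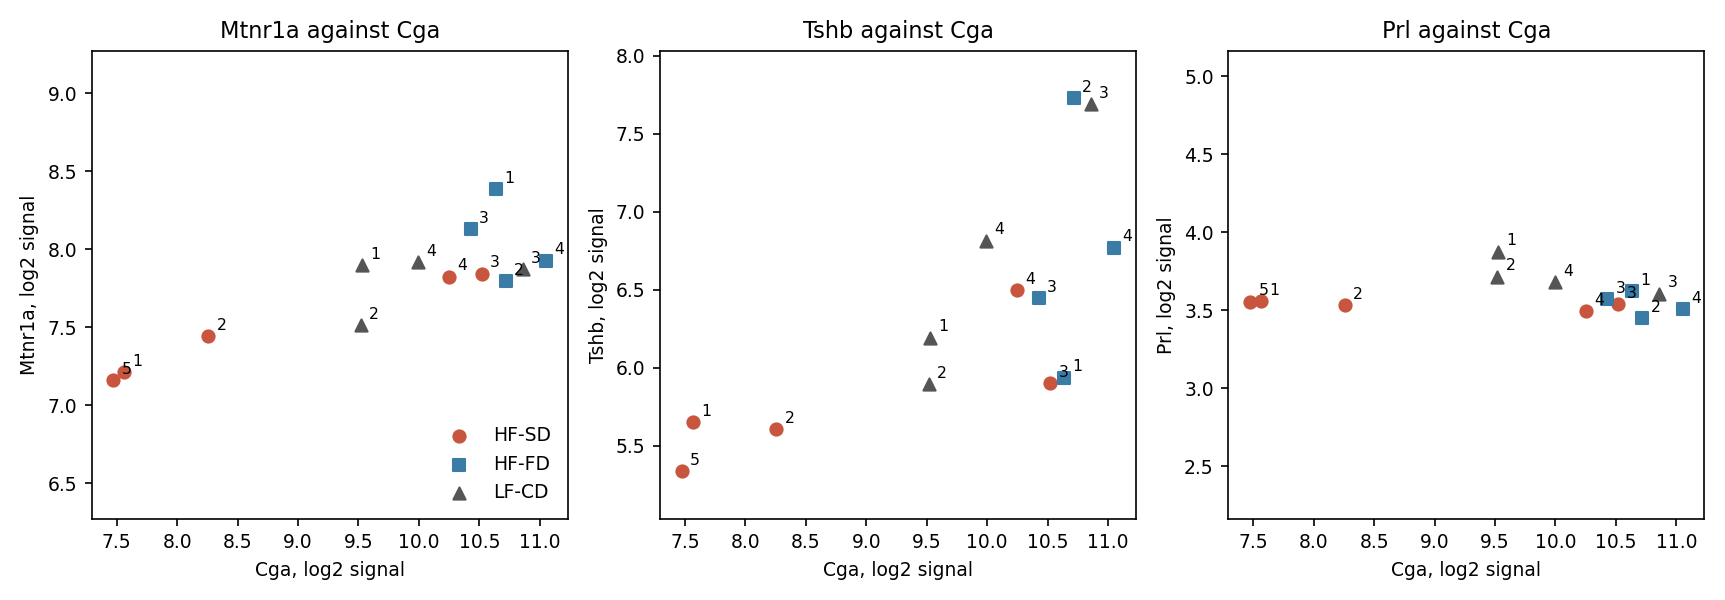
Log2 signal of Mtnr1a, Tshb and Prl (y axes, the same span in each) against the log2 signal of Cga (x axis) on the 13 arrays, numbered by replicate within HF-SD, HF-FD and LF-CD. HF-SD 1, 2 and 5 are lowest for Cga, Mtnr1a and Tshb, while Prl lies in a narrow band at every level of Cga.

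Markers of other tissues moved with some of these values. The mean over 7 blood cell genes was 7.52, 7.84, 7.63, 7.85 and 7.56 on HF-SD 1 to 5, 7.44, 8.30, 8.12 and 8.57 on HF-FD 1 to 4, and 7.67, 8.11, 8.37 and 8.25 on LF-CD 1 to 4. HF-FD 2 and LF-CD 3, the highest arrays for Tshb, were among the highest 3 of this list, and its highest array, HF-FD 4, had a Tshb signal of 6.77. The muscle gene Myl11 was 6.25 to 6.63 in HF-SD, 6.58 to 6.73 in HF-FD and 6.86 to 7.19 on LF-CD 1, 2 and 4, with 9.29 on LF-CD 3. LF-CD 3 was also the highest array for Gh1, at 7.29. The part of blood or muscle RNA in these results was not tested.

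**Figure D3:**
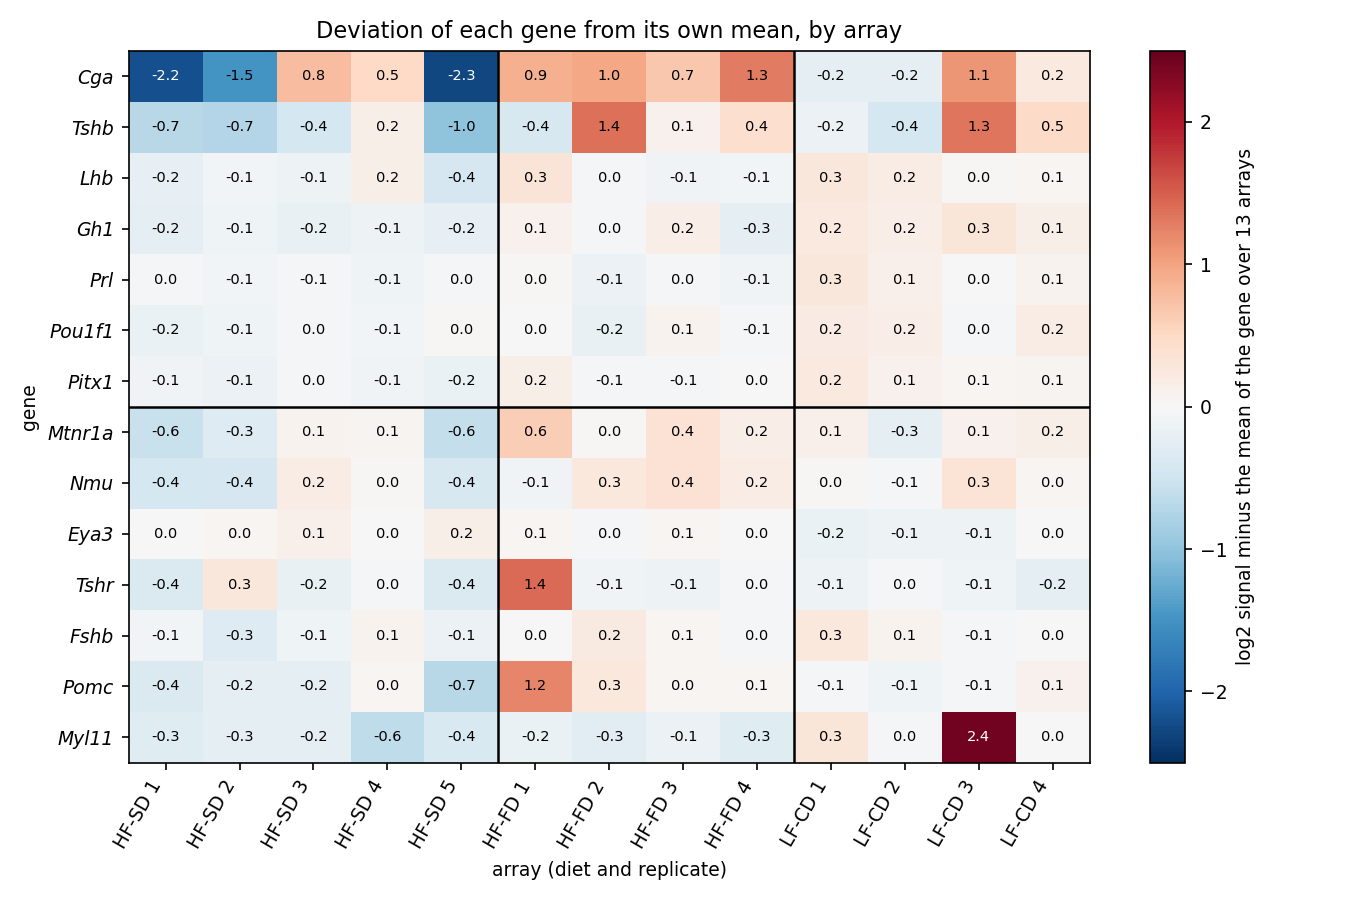
Deviation of each gene (rows) from its own mean over 13 arrays (columns, HF-SD, HF-FD and LF-CD from left to right), in log2 units given in each cell and by colour. The upper block holds the 7 pituitary genes and the lower block 7 genes of the pars tuberalis, anterior pituitary, tanycyte and muscle lists. The low Cga cells of HF-SD 1, 2 and 5 coincide with low Mtnr1a and Nmu, the high Tshr and Pomc cells lie on HF-FD 1 and the high Myl11 cell on LF-CD 3.

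Whether the hormone genes varied together within diets was examined as correlations of the deviations from the diet means, over 21 pairs with permutation of arrays within diets. After Benjamini-Hochberg adjustment 0 of the 21 pairs passed. Without HF-FD 2 the pair Cga and Tshb passed (r = 0.68, permutation adjusted p = 0.0487), and without LF-CD 1 or LF-CD 2 the pair Tshb and Prl did (r = -0.93 and -0.88, permutation adjusted p = 0.0084 and 0.0153). For Cga and Tshb, Pearson's r was 0.56 (permutation p = 0.00526, adjusted p = 0.0971) and Spearman's rho was 0.66 (permutation p = 0.00599, adjusted p = 0.0629), and r was 0.67 without HF-SD 3 and 4, the 2 arrays with the largest deviations of Cga from their diet mean. For Tshb and Prl, r was -0.79 (permutation p = 0.0114, adjusted p = 0.0971), rho was -0.82 (permutation p = 0.00475, adjusted p = 0.0629), and r was -0.56 without LF-CD 3 and HF-FD 2, chosen in the same way by Tshb. For Lhb and Pitx1, r was 0.70 (permutation p = 0.0139, adjusted p = 0.0971), rho was 0.71 (permutation p = 0.0116, adjusted p = 0.0809), and r was 0.66 without HF-SD 4 and HF-FD 1. For Gh1 and Prl, the products of the pars distalis, r was 0.23 (permutation p = 0.519, adjusted p = 0.771), rho was 0.20 (permutation p = 0.583, adjusted p = 0.848), and r was 0.15 without HF-FD 3 and 4.

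For HF-SD against LF-CD, the 4 members whose mean reached the median over all transcript clusters (Cga, Lhb, Gh1 and Pitx1) were tested with limma beside 16033 genes in all. Gh1 and Pitx1 fell, 2 of 4 members, where 39.8% of all tested genes passed in either direction, 22.9% as higher and 16.9% as lower, so the count says nothing particular to these genes. Gh1 averaged 6.82 ± 0.05 (SD, n = 5) in HF-SD and 7.20 ± 0.07 (SD, n = 4) in LF-CD, a log2 change of -0.38 (SE 0.08, limma adjusted p = 0.00421). Pitx1 averaged 7.69 ± 0.05 (SD, n = 5) in HF-SD and 7.92 ± 0.09 (SD, n = 4) in LF-CD, a log2 change of -0.23 (SE 0.06, limma adjusted p = 0.012). Across scalings neither call was kept throughout: for Gh1, quantile normalization gave -0.21 (limma adjusted p = 0.0704), cyclic loess -0.19 (0.0717) and median centring -0.17 (0.0788). For Pitx1, cyclic loess gave -0.17 (limma adjusted p = 0.0384), quantile normalization -0.18 (0.0607) and median centring -0.01 (0.878). The median log2 change of all tested genes was 0.07 as deposited and 0.04, 0.05 and 0.28 after quantile normalization, cyclic loess and median centring. Median centring moves all genes of a comparison by the same amount. The share of calls that were higher was 57.6% as deposited and 69.9%, 68% and 98.3% after these scalings.

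Cga and Lhb did not pass in this comparison. The Cga log2 change was -1.16 (SE 0.55, 95% interval -2.34 to 0.02, limma adjusted p = 0.104), with 3 of 5 HF-SD arrays below every LF-CD array. It passed without HF-SD 3 (-1.59, adjusted p = 0.0253) or without HF-SD 4 (-1.52, adjusted p = 0.0313), the 2 HF-SD arrays with high Cga. Lhb had -0.27 (SE 0.11, limma adjusted p = 0.0592). It passed without HF-SD 4 (-0.34, adjusted p = 0.0168) or without HF-FD 1 (-0.27, adjusted p = 0.0339). Under the other scalings the Lhb change was -0.08 after quantile normalization (adjusted p = 0.619), -0.07 after cyclic loess (0.658) and -0.06 after median centring (0.662).

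The members below the filter were fitted without it, over 22093 genes of which 45.3% passed and 27.6% passed as lower. Tshb had a log2 change of -0.85 (limma adjusted p = 0.0675), with -0.50 without LF-CD 3 and -0.41 with array weights. Prl had -0.18 (limma adjusted p = 0.0249), with -0.05 after quantile normalization, -0.06 after cyclic loess and 0.03 after median centring. Pou1f1 had -0.20 (limma adjusted p = 0.0283), with 0.02, 0.04 and 0.01 after quantile normalization, cyclic loess and median centring, so its sign depended on the scaling. All HF-SD arrays lay below all LF-CD arrays for Gh1, Prl and Pitx1, as they did for 18.7% of all genes and 12.5% of those tested.

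The olfactory receptor median, which was lower in HF-SD than in LF-CD, moved with the same members over 13 arrays. Arrays were permuted across diets for these values, so their p-values take in the difference between diets that the genes and the olfactory median share. Pearson's r with it was 0.85 for Gh1 (permutation p = 0.00023, adjusted p = 0.00161 over 7 genes), with a Spearman's rho of 0.85 (permutation p = 0.00039, adjusted p = 0.00273). It was 0.81 for Prl (permutation p = 0.00062, adjusted p = 0.00205), 0.81 for Pitx1 (permutation p = 0.00088, adjusted p = 0.00205), 0.77 for Pou1f1 (permutation p = 0.00242, adjusted p = 0.00423) and 0.65 for Lhb (permutation p = 0.015, adjusted p = 0.0211). Spearman's rho was 0.69 for Prl, 0.79 for Pitx1, 0.67 for Pou1f1 and 0.71 for Lhb, with adjusted permutation p-values of 0.0193, 0.00724, 0.0205 and 0.0177 in that order. Without LF-CD 1 and 2, the arrays farthest from the median of the olfactory value, r was 0.85 for Gh1, 0.56 for Prl, 0.65 for Pitx1, 0.57 for Pou1f1 and 0.47 for Lhb. For Cga and Tshb r was 0.32 and 0.29 (permutation p = 0.288 and 0.334, both adjusted p = 0.334), with rho of 0.22 and 0.43 (adjusted permutation p = 0.468 and 0.17), and 0.58 and 0.64 without those 2 arrays. Within diets no gene passed: r was 0.36 for Gh1, 0.63 for Prl, 0.32 for Pitx1, 0.50 for Pou1f1, 0.41 for Lhb, -0.13 for Cga and -0.46 for Tshb, with adjusted permutation p-values of 0.353 to 0.621. This relation was chosen after the data had been seen. With the olfactory receptor median as a covariate in the limma fit, the HF-SD minus LF-CD change was -0.18 for Gh1 (adjusted p = 0.735) and -0.10 for Pitx1 (adjusted p = 0.8). The covariate differed between the diets, and 0 of all 16033 genes passed in that fit.

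HF-FD was then set against LF-CD, which shares its arrays with the comparison above. Of the 4 tested members 0 passed, where 0% of all genes passed with limma, while 3226 genes had an unadjusted p below 0.05 and 4713 passed with array weights. Cga averaged 10.71 in HF-FD and 9.97 in LF-CD, a log2 change of 0.74 (SE 0.58, 95% interval -0.51 to 1.98, limma adjusted p = 0.47). Gh1 had -0.21 (95% interval -0.38 to -0.04, limma adjusted p = 0.209), Pitx1 -0.11 (0.352) and Lhb -0.10 (0.619). With array weights, which count less an array far from its group, Gh1 (adjusted p = 0.0287) and Pitx1 (adjusted p = 0.0384) passed. Without the filter, where 0.00453% of all genes passed, Tshb had 0.07 (limma adjusted p = 0.919, with 1.11 under array weights and -0.26 to 0.42 when single arrays were left out), Prl -0.18 (0.184) and Pou1f1 -0.16 (0.215).

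Between the high-fat diets Cga had the widest difference of the 7 genes. It averaged 8.81 in HF-SD and 10.71 in HF-FD, a log2 change of -1.90 (SE 0.55, 95% interval -3.08 to -0.71), or 3.72-fold lower. This did not pass after adjustment (limma adjusted p = 0.246, from an unadjusted value of 0.00386), and 0% of all genes passed, with 2480 genes at an unadjusted p below 0.05. With array weights it was -1.95 (adjusted p = 0.0177), and 4667 genes passed. HF-SD 3, at 10.52, was above HF-FD 3, at 10.43, so the groups overlapped. Tshb had -0.92 (95% interval -1.69 to -0.15, limma adjusted p = 0.265 without the filter). Lhb and Gh1 both had -0.17 (limma adjusted p = 0.43 and 0.312), Pitx1 had -0.12 (0.346), and without the filter Pou1f1 had -0.04 (0.782) and Prl had -0.003 (0.982).

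**Figure D4:**
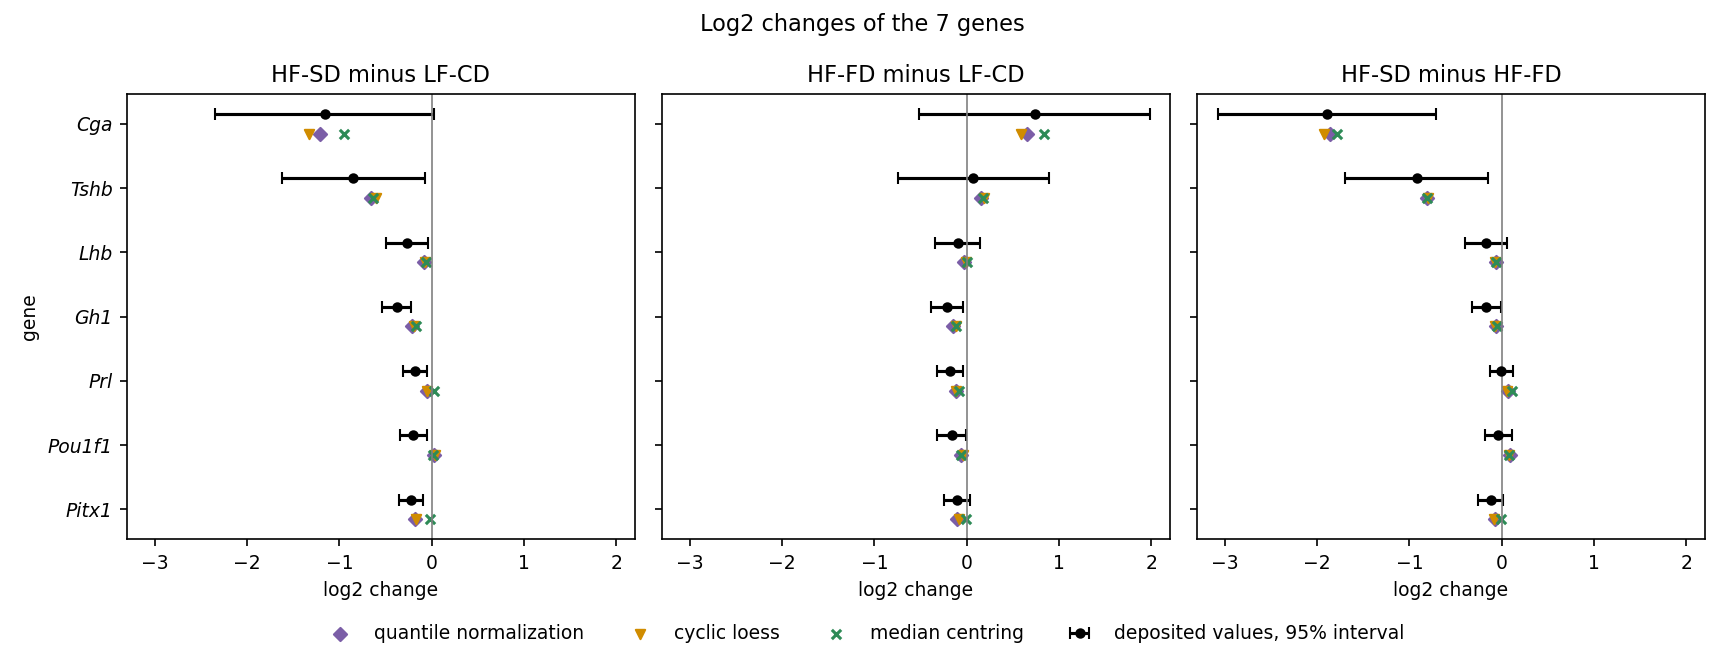
Log2 change (x axis) of the 7 genes (y axis) in HF-SD minus LF-CD, HF-FD minus LF-CD and HF-SD minus HF-FD. Black points and bars are the deposited values with 95% intervals and coloured points are 3 other scalings. The Cga intervals are the widest, and the changes of Gh1, Prl, Pou1f1 and Pitx1 in HF-SD minus LF-CD move towards 0 under other scalings.

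The F test over the 3 diets together (limma) was passed by Cga (F = 6.06, adjusted p = 0.0484), Gh1 (F = 12.7, adjusted p = 0.015) and Pitx1 (F = 6.89, adjusted p = 0.0377), 3 of the 4 tested members, where 25.3% of all genes passed. Lhb did not pass (F = 3.23, adjusted p = 0.147). The count was 0 after quantile normalization or cyclic loess and 1 after median centring. With the replicate number as a block in the fit it was 0, and 0 of all tested genes passed. Number 5 occurs only in HF-SD, so HF-SD 5 adds nothing to the diet comparisons of that fit. When each of the 13 arrays was left out in turn, Gh1 passed in 13 of 13 fits. Pitx1 passed in 7 and not without HF-SD 1, 2, 3 or 5 or LF-CD 1 or 2. Cga passed in 3 (without HF-SD 3, HF-SD 4 or LF-CD 3), with adjusted p-values of 0.0182 to 0.122 over the 13 limma fits.

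Other anterior pituitary genes gave a mixed picture in HF-SD against LF-CD. Of 9 measured hormone and receptor genes 7 were tested, of which 1 rose and 3 fell, where 22.9% of all tested genes passed as higher and 16.9% as lower. The median log2 change was -0.21, beside 0.07 for all tested genes. Trhr, the receptor for thyrotropin-releasing hormone, rose by 0.26 (limma adjusted p = 0.0152). Avpr1b, the vasopressin receptor of corticotrophs, had -0.36 (limma adjusted p = 0.00379) and Ghrhr, the receptor for growth hormone-releasing hormone on somatotrophs, had -0.31 (limma adjusted p = 0.00399). Ghrhr was 6.47 to 6.61 in HF-SD and 6.74 to 6.94 in LF-CD, a narrow band with no array far above the others. Its signal was above the 95th percentile of the olfactory receptor signals on 0 of 13 arrays. Fshb, the beta subunit of follicle-stimulating hormone, was 6.17 to 6.58 in HF-SD, 6.45 to 6.71 in HF-FD and 6.43 to 6.75 in LF-CD. Pomc, made by corticotrophs and melanotrophs but also by arcuate neurons, was 9.40 on HF-FD 1 and 7.49 to 8.45 on all other arrays.

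Of 10 measured pituitary transcription factors 7 were tested, of which 4 fell and 0 rose beside the same shares, with a median log2 change of -0.21. Lhx3, a LIM-homeodomain factor required for the pituitary, had -0.36 and Nr5a1, a factor of gonadotrophs and of ventromedial hypothalamic neurons, had -0.29 (limma adjusted p = 0.0108 each). After quantile normalization or cyclic loess, Trhr passed as higher, Avpr1b as lower and the factors Lhx3 and Nr5a1 as lower, while Ghrhr did not pass (limma adjusted p = 0.103 to 0.174 over the 3 other scalings). After median centring, which shifts all genes upward in this comparison, Trhr passed as higher, and 0 genes passed as lower in either list. Of the 7 pars tuberalis and response genes, all tested, only Eya3 passed, with 0.17 (limma adjusted p = 0.0259), and the median was -0.06. Eya3 had 0.14 after quantile normalization and after cyclic loess (limma adjusted p = 0.0801 and 0.0665), while 2 genes of the list passed as higher after median centring. Mtnr1a had -0.30 (limma adjusted p = 0.126) and Nmu -0.30 (0.0865) in HF-SD against LF-CD, beside -0.56 (0.246) and -0.39 (0.251) in HF-SD against HF-FD.

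The releasing factors of the hypothalamus act upstream of these hormones. Of 7 tested genes 2 fell in HF-SD against LF-CD and 0 rose, where 16.9% of all tested genes passed as lower, and the median log2 change was -0.08. Ghrh, growth hormone-releasing hormone, was 7.59, 7.90, 7.97, 7.99 and 7.60 in HF-SD and 8.23, 8.36, 8.25 and 8.43 in LF-CD, a log2 change of -0.51 (SE 0.09, limma adjusted p = 0.00379) in groups that did not overlap. Gnrh1, gonadotropin-releasing hormone, was 7.22, 6.87, 6.75, 7.00 and 7.08 in HF-SD and 7.42, 7.26, 7.42 and 7.43 in LF-CD, a log2 change of -0.40 (SE 0.09, limma adjusted p = 0.00708), also without overlap. All HF-SD arrays lay below all LF-CD arrays for 12.5% of the tested genes. Ghrh passed under each of the 3 other scalings (limma adjusted p = 0.00841 to 0.00946) and Gnrh1 under none of them (0.081 to 0.121). Of 8 tested receptors and targets of pituitary hormones 0 passed, with a median of 0.03.

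Among the neighbouring tissues, 1 of 9 tested tanycyte and median eminence genes passed, Rax with -0.35 (limma adjusted p = 0.0181), and the median was -0.13. Rax passed after cyclic loess (limma adjusted p = 0.0414) and not after quantile normalization (0.0818) or median centring (0.306). Of 12 defining hypothalamic genes 1 passed, Agrp with -0.37 (limma adjusted p = 0.00917), with a median of -0.07. Agrp passed under none of the other scalings (limma adjusted p = 0.135 to 0.18). Of 11 tested skeletal muscle genes 6 fell (median -0.78), and of 4 tested blood cell genes 1 fell (median -0.41), beside 16.9% of all tested genes. After each of the other scalings 2 muscle genes and 0 blood cell genes fell. Without LF-CD 3 and HF-FD 1 the muscle median was -0.34, with 8 genes lower. Of 7 tested genes of meninges and connective tissue 0 passed (median -0.01). In the other 2 comparisons 0 genes of any of these lists passed with limma.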

How the data were processed

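Affymetrix expression arrays were hybridised with material made from 100 ng of total RNA by the GeneChip WT PLUS procedure, per the labels' protocols. The authors deposited log2 signals for 70580 transcript clusters on 13 arrays. The submitters' processing notes list RMA, Affymetrix Expression Console and Transcriptome Analysis Console, with no version or order. RMA corrects background, normalizes quantiles of probes and summarises them by median polish, yet array medians still ran from 6.42 to 6.74. A genome build for the clusters was not given in the sources used here. Arrays carry no read depth, and their number limits the precision. No 2 arrays held identical values, and Pearson's r between arrays was 0.952 to 0.997.

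Gene names came from GEO's platform annotation, with 23446 transcript clusters of 1 symbol, 505 of several and 46629 of none (controls included). The gene IDs of 22077 matched RefSeq. Where a gene had several clusters, the one with the highest mean was kept. Genes with a mean of at least 6.58, the median of all clusters, were tested (16033). Means of the 3 diets were fitted over all 13 arrays with limma 3.58.1 in R 4.3.3 (lmFit, eBayes), two-sided, with Benjamini-Hochberg adjustment over the genes tested and a threshold of 0.05. Correlations used 100000 permutations, within diets for pairs of members (Python 3.11.15, SciPy 1.17.1). For the olfactory receptor median the arrays were permuted across diets, except in the correlations given as within diets. The fit and the correlations were tested on simulated data.

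The 7 members and all gene lists were chosen with earlier results of these data known. At most 4 genes per list were planned to be named. They were those with the smallest unadjusted p in HF-SD minus LF-CD or those whose level bears on the tissue an array held. This limit was passed in 2 lists. All 7 genes of the pars tuberalis list were named, and Trhr, Avpr1b, Ghrhr, Fshb and Pomc of the other anterior pituitary list. The like-pattern genes were the 5 with the highest r (provisional symbols and olfactory, vomeronasal and taste receptors left out). Alternatives were scaling, the filter, the row of a gene, array weights, robust eBayes with an intensity trend, an olfactory covariate, fits of 2 diets only, a replicate block and leaving out each array.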

Additional observations from a re-analysis of the deposited data

Results flagged for a closer look

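Single arrays lay far from the rest of their diet, judged by the gap to the nearest array as a share of the range of the group (Dixon's ratio). This was so in 1 of 21 groups of members, near the share of about 5% of groups that chance gives. It was also so in 9 of 105 groups of 35 other named genes. Some of those genes were chosen for a wide range or for their level on an array, so 5% is no measure for them. The member was Lhb on HF-FD 1, at 7.28 with the other HF-FD arrays at 6.86 to 6.93 (ratio 0.833). Tshr was high on the same array (ratio 0.938), at 8.24. Mtnr1a was low on LF-CD 2, at 7.51 with the others at 7.87 to 7.92 (ratio 0.892), and Gnrh1 was low on that array, at 7.26 (ratio 0.915). On LF-CD 3, Agrp was low at 7.09 (ratio 0.864), Myl11 high at 9.29 (ratio 0.865) and Mir3120 high at 8.80 (ratio 0.935). Avpr1b was high on HF-FD 3, at 7.63 (ratio 0.839). Mir181d was low on HF-FD 4, at 7.21 (ratio 0.835). Lgals5 was high on HF-SD 4, at 8.99 (ratio 0.776), the HF-SD array with the highest Tshb signal. Lgals5 was named for its high r with Tshb over the same arrays, so this match is no separate result. The cause of these values was not tested.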

How the results depend on the processing

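In HF-SD minus LF-CD the count of members past the threshold, 2 as reported, was 4 without the filter, 0 after quantile normalization, median centring or with the olfactory receptor median as a covariate, 1 after cyclic loess and 2 to 4 when single arrays were left out (4 without HF-SD 4, where Cga and Lhb passed too). It was 3 without LF-CD 3 and HF-FD 1 together, a setting added after seeing the data, where Lhb passed as well (-0.31, adjusted p = 0.027) and Cga had -0.87 (adjusted p = 0.263). The count of all genes, 6377, was 10003, 2326, 9620, 0 and 3099 with no filter, quantile normalization, median centring, the covariate and cyclic loess, in that order, and 4512 to 6814 when single arrays were left out. Gh1 and Pitx1 passed in each fit that left out 1 array. In HF-FD minus LF-CD the count of members was 2 and that of genes 4713 with array weights, 1 gene passed without the filter, and no member or gene passed when single arrays were left out (0 to 0). In HF-SD minus HF-FD array weights gave 2 members and 4667 genes, and leaving out single arrays gave 0 members and 0 to 90 genes (90 without HF-SD 4 and 3 without HF-FD 4). In the F test 3 members and 4062 genes passed as reported. There the members were 0 after quantile normalization, cyclic loess, with the covariate or with a replicate block, 1 after median centring and 1 to 4 when single arrays were left out (1 without HF-SD 1, 2 or 5 or LF-CD 1 or 2). Genes were 6511 without the filter, 680 after quantile normalization, 7996 after median centring, 1272 after cyclic loess, 9866 with array weights, 0 with the covariate or the replicate block, and 1470 to 4637 when single arrays were left out (1470 without LF-CD 1, 1552 without HF-SD 1, 1628 without HF-SD 5, 1933 without LF-CD 2 and 2303 without HF-SD 3). The number of member pairs past the threshold, 0 of 21, was 1 after quantile normalization, 4 after median centring and 0 to 1 when single arrays were left out. Among tested values, signs reversed for Lhb in HF-SD minus LF-CD with the covariate (0.0904), for Lhb in HF-FD minus LF-CD with median centring (0.0016) and with the covariate (0.11), and for Gh1 and Prl, whose r was -0.0063 after cyclic loess. Members below the filter also crossed 0 when single arrays were left out: Tshb in HF-FD minus LF-CD (-0.26 to 0.42), and Prl (-0.03 to 0.03) and Pou1f1 (-0.08 to 0.0048) in HF-SD minus HF-FD. The cause was not tested. Whether replicate numbers pair the arrays was not tested. Over 12 same-numbered pairs of different diets, the correlation of deviations from diet means was -0.26 to 0.43 and exceeded 0.1 in 7. For pairs of different diets with different numbers it was -0.54 to 0.56. With the replicate block, in which HF-SD 5 has no partner and adds nothing to the diet comparisons, 4652 genes and 2 members passed in HF-SD minus LF-CD. The number of arrays, 4 or 5 a diet, limits what can be seen for Cga, whose 95% intervals in HF-SD minus LF-CD reached from -2.34 to 0.02.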
